A study of Homo sapiens and Mus musculus with 12 samples.

Results

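The MAF and KLF transcription factors described here are 9 genes: MAF, the small MAF genes MAFF, MAFG and MAFK, and the Krüppel-like factor genes KLF2, KLF4, KLF6, KLF9 and KLF10. They were taken as a named list and matched by symbol in capital letters. All 9 were found in both expression tables, among 16782 listed genes for the human melanoma line A375 and 12711 for the mouse melanoma line Yumm1.7. MAF was put on the list because its level was higher in one state of both lines, so its own difference is given as a description. The lysates were spun through sucrose gradients, which separate mRNAs by how many ribosomes they carry. Sample titles divide each line into 2 states, P and S. The study describes parental cells and drug-tolerant persister cells, which survive a drug without stable resistance, but the labels do not say which letter is which, nor name a drug, so P and S are kept as names. RNA came from the input (before the gradient), the monosomes (the 80S peak and lighter fractions) and the polysomes (the heaviest fractions), with 1 library of each per state and line and 12 libraries in all. No group has a replicate, so the spread between samples is unknown and no p-value is given. Both lines are established cultures, and the 3 libraries of a state are different fractions, not replicates.

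MAF proteins bind DNA through a basic leucine zipper. MAF is a large MAF protein with its own activation domain, known for lens fibre, T cell, macrophage and myeloma gene programmes. The small MAF proteins lack that domain and act as partners of other leucine zipper proteins, such as NRF2 (gene NFE2L2), at antioxidant response elements, or as repressive dimers. KLF proteins bind GC boxes and CACCC boxes through zinc fingers at their carboxyl end. They include factors induced by shear stress (KLF2, KLF4), by injury (KLF6), by glucocorticoids (KLF9) and by TGF-beta (KLF10).

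The human promoters of MAF and KLF9 are shown first, because these were the members whose A375 mRNA was at least 2-fold higher in S in all 3 fractions. The RefSeq promoter table (GRCh38.p14, the build family that the submitters' processing notes name for A375) holds a window from 250 bases before to 50 after the start for 7 of the 9 genes, with a pair of windows for MAFF. MAFK and KLF10 had no entry. The 250 bases before the start are given 5′ to 3′ on the gene's strand. MAF is at chr16:79600738-79600987, minus strand, and KLF9 at chr9:70414658-70414907, minus strand. Capitals mark TGACGTCA (a cyclic AMP response element, which is also the core of a MAF recognition element) and TGCTGA on either strand (one arm of a MAF recognition element), read here as TCAGCA.
MAF: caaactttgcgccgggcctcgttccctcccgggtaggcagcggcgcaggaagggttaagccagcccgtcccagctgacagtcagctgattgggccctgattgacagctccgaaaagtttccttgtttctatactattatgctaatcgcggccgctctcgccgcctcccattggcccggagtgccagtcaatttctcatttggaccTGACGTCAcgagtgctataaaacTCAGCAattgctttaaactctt
KLF9: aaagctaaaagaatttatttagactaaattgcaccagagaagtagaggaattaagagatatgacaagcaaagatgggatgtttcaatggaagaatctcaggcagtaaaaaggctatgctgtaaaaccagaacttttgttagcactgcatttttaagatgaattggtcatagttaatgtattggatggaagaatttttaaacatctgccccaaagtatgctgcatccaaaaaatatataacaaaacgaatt

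Searched over the whole 300-base windows and both strands, TGCTGA was in 1 of the 7 genes (MAF), against 17.3% of 35116 RefSeq promoter windows. TGANNNNGC, the antioxidant response element core, was in 4 of 7 (41.8% of all windows), CACCC in 2 of 7 (59.9%) and GGGCGG, the GC box, in 5 of 7 (45%). The KLF9 window held none of these and was 32.7% G and C, whereas the KLF2 window was 80.7% and held 6 GC boxes. The median over all windows was 58.7%. TGACGTCA was added to the search after the windows were read. It was in MAF and MAFF, 2 of 7 genes with 8 windows, and in 1.85% of all windows. The motif was chosen with these windows in view, so the count cannot be read as an excess over that share. The element begins 45 bases before the MAF start and 54 bases before the upstream MAFF start. The 28-base stretches around it, at chr16:79600765-79600792 (minus strand) and chr22:38201930-38201957 (plus strand), come from a gene that was higher in S and one that was lower in S.
MAF site: catttggaccTGACGTCAcgagtgctat
MAFF site: gccgggtcggTGACGTCAccgcatgact
The motif matches are descriptions of sequence and say nothing about binding in these cells.

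Values are TPM, in which a gene's read density is scaled to a library total of 1000000. TPM is relative within a library and keeps no read depth, so counting error is unknown. Differences are given as log2(TPM + 1) of S minus P. For input, the median gene differed by -0.20 in A375 and -0.94 in Yumm1.7. In monosomes it was 0.04 and -0.21, and in polysomes -0.21 and -1.53. Log2 differences below are therefore relative to the median gene of each comparison unless called as deposited. The comparisons used genes that averaged 1 TPM or more across a line's 6 libraries (12638 in A375, 10492 in Yumm1.7), and all 9 members passed. Some passed only through the state where they were high: MAF in Yumm1.7 and KLF2 in A375 through S, and MAFF and KLF4 in Yumm1.7 through P. Counts over the members are therefore descriptions. A375 carried melanocyte lineage markers (8 of 10 analysed, summing to 269 to 608 TPM in P and 441 to 882.5 in S). That sum joins genes that moved apart between P and S input. DCT went from 25.15 to 249 TPM and PMEL from 6.49 to 39.5, whereas MITF went from 66.65 to 43.0 and EDNRB from 14.5 to 10.7. Yumm1.7 carried few of these markers (5 of 10 analysed, 14.25 to 21.3 TPM in P and 9.73 to 13.5 in S). In that line S100B was at 0 to 0.237 TPM. MITF went from 4.76, 7.01 and 5.14 in P to 0.571, 0.457 and 0.429 in S. PAX3 made up most of the S sums, at 9.16, 11.4 and 8.08 TPM in input, monosomes and polysomes. In P it had 9.16, 12.1 and 15.5.

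MAF was higher in S in every fraction of both lines. In A375 it had 9.74 TPM in P input, 9.88 in P monosomes and 13.5 in P polysomes, against 144, 129 and 137 in S. The S libraries lay far above the P libraries, with no overlap, and the fractions of a state were close to each other. The log2 differences were 3.96 in input, 3.54 in monosomes and 3.45 in polysomes. In Yumm1.7, Maf had 0.304, 0.130 and 0.102 TPM in P input, monosomes and polysomes and 20.6, 24.97 and 15.7 in S. The gene thus went from near the lowest levels among tested genes in P input to a moderate level in S input. The log2 differences were 4.98, 4.73 and 5.46. MAF ranked 42 of 12638 genes from the top in A375 input and 39 of 10492 in Yumm1.7 input. Among tested genes, its A375 input level stood at percentile 39.6 in P and 93.4 in S. The Yumm1.7 percentiles were 1.06 and 73.7. These values are the ones that put MAF on the list.

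**Figure D1:**
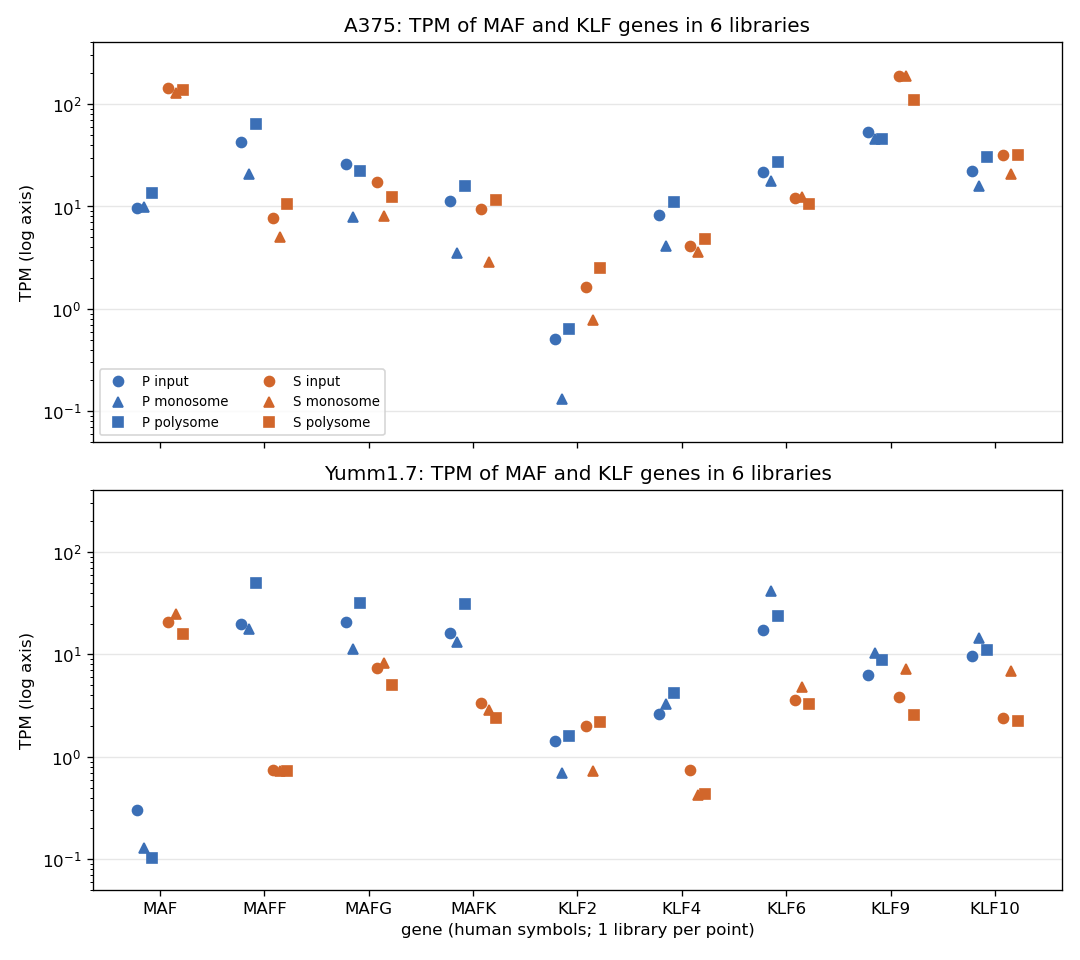
TPM (log axis) of the 9 MAF and KLF genes in the 6 libraries of A375 (top) and of Yumm1.7 (bottom). Each point is 1 library, blue for P and orange for S, with circles for input, triangles for monosomes and squares for polysomes. MAF is at 129 to 144 TPM in A375 S against 9.74 to 13.5 in P, and MAFF lies the other way in both lines.

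MAFF, a small MAF gene induced by growth factors and stress, was lower in S in both lines. A375 had 42.6, 20.8 and 63.2 TPM in P input, monosomes and polysomes and 7.73, 5.06 and 10.6 in S. Yumm1.7 had 19.9, 17.5 and 49.3 TPM in P and 0.747, 0.724 and 0.727 in S. In neither line did the states overlap, and P polysomes held the highest value of each line. The log2 differences were -2.12, -1.89 and -2.26 in A375 input, monosomes and polysomes while the Yumm1.7 values were -2.65, -3.22 and -3.33.

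MAFK, another small MAF gene, differed between states in Yumm1.7 but hardly in A375. Yumm1.7 had 16.1, 13.1 and 31.2 TPM in P input, monosomes and polysomes and 3.35, 2.85 and 2.40 in S, without overlap. A375 had 11.4, 3.52 and 15.7 TPM in P and 9.48, 2.89 and 11.6 in S. In A375 the fractions differed more than the states did, with monosomes lowest in both. The log2 differences of MAFK were -1.04, -1.67 and -1.71 in Yumm1.7 and -0.05, -0.25 and -0.20 in A375. The Yumm1.7 input value was -0.79 with a pseudocount of 5 and -0.97 among genes averaging 5 TPM or more. Whether the lines differ was not tested.

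MAFG, the third small MAF gene, stayed within 2-fold of the median gene in all fractions of both lines. A375 had 26.0, 7.82 and 22.2 TPM in P input, monosomes and polysomes and 17.5, 7.996 and 12.5 in S. Yumm1.7 had 20.7, 11.3 and 31.8 TPM in P and 7.39, 8.22 and 4.98 in S. The A375 states overlapped and the Yumm1.7 states did not. In Yumm1.7 the log2 differences were -0.43, -0.21 and -0.92 relative to the median gene but -1.37, -0.42 and -2.46 as deposited, so that input and polysome values passed 2-fold on the deposited scale. They also did when TPM was rescaled without mitochondrially encoded genes (-1.13 and -2.03), and the polysome value did without the filter on low values (-1.24).

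Summed over MAFF, MAFG and MAFK, small MAF mRNA in A375 input was 80.0 TPM in P and 34.7 in S. Yumm1.7 input had 56.6 and 11.5. MAFF made up 53.2% of that sum in A375 P input and 22.3% in S input. In Yumm1.7 its share went from 35.1% to 6.50%. MAF mRNA per small MAF mRNA, a ratio within each library that does not depend on scaling, was 0.122 in A375 P input and 4.16 in S input. In Yumm1.7 input the same ratio was 0.00536 and 1.79. MAF was chosen for its gain in S, so the rise of this ratio partly restates that choice.

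The partners of small MAF proteins were compared in input RNA. The shares of all genes at least 2-fold higher and lower apply to this and the following lists. Relative to the median gene they are 15.6% and 16.2% in A375 input and 23.1% and 22.3% in Yumm1.7 input. As deposited they are 11.9% and 20.9% in A375 input and 8.94% and 48.1% in Yumm1.7 input. NFE2L2, which encodes NRF2, had 114 TPM in A375 P input and 126 in S input (0.35), but 59.7 and 1.696 in Yumm1.7 (-3.56). Yumm1.7 Nfe2l2 had 90.1 and 112 TPM in P monosomes and polysomes and 9.44 and 5.05 in S, so the P and S libraries did not overlap. NFE2L1, a related factor that controls proteasome genes, went from 68.1 to 124 TPM in Yumm1.7 input (1.79), and A375 had 104 and 142 (0.63). KEAP1, which targets NRF2 for degradation, was at 0.65 in A375 (52.0 and 71.4 TPM) and 0.86 in Yumm1.7, where its TPM was 20.3 and 19.2 and so slightly lower in S as deposited. The whole list counts KEAP1 with the partners. In it, 1 of 6 tested genes was at least 2-fold higher and 0 lower in A375 input (median 0.64). In Yumm1.7 it was 1 of 4 higher and 1 lower (median 0.38), or 0 and 2 as deposited (median -0.56). The median over all genes tested is 0 by construction.

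Antioxidant response element genes, where small MAF and NRF2 dimers bind, were counted next. In A375 input, 1 of 14 was at least 2-fold higher and 3 were lower (median -0.55), or 1 and 5 as deposited. They were the cystine transporter SLC7A11 (16.8 TPM in P and 2.85 in S), the thioredoxin reductase TXNRD1 (190 and 63.4) and the glutathione synthesis gene GCLM (17.1 and 5.87), with the biliverdin reductase BLVRB as the higher one (52.9 and 128). In Yumm1.7 input, 0 of 13 were higher and 6 were lower (median -0.66), or 0 and 11 as deposited (median -1.595). They included the quinone reductase gene NQO1 (83.8 and 7.90), GCLM (14.3 and 0.609), GCLC (13.7, and 0 as listed in S) and SLC7A11 (9.53 and 0.150). GCLC had 2.64 TPM in Yumm1.7 S monosomes.

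KLF9, a glucocorticoid- and thyroid-hormone-inducible repressor, was higher in S in A375. It had 52.8, 45.5 and 45.1 TPM in P input, monosomes and polysomes and 187, 189 and 110 in S. All S values lay above all P values, with the polysome value lowest within S. The log2 differences were 2.004, 1.99 and 1.47. In Yumm1.7, Klf9 had 6.30, 10.3 and 8.76 TPM in P and 3.88, 7.27 and 2.54 in S. The states overlapped there, and the differences were 0.35, -0.24 and 0.07 relative to the median gene, or -0.58, -0.45 and -1.46 as deposited, so the direction in input and polysomes turns with the scale.

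KLF2, known for endothelial and lymphocyte quiescence, was low in all 12 libraries. A375 had 0.507, 0.133 and 0.638 TPM in P input, monosomes and polysomes and 1.63, 0.787 and 2.49 in S. Yumm1.7 had 1.43, 0.699 and 1.59 TPM in P and 2.02, 0.730 and 2.17 in S. The A375 states did not overlap, the Yumm1.7 states did, and monosomes were lowest in each state. The log2 differences were 1.002, 0.62 and 1.30 in A375 and 1.24, 0.24 and 1.82 in Yumm1.7. With a pseudocount of 5 A375 gave 0.40 in input and 0.54 in polysomes and Yumm1.7 gave 0.67 in input, all within 2-fold. Without the filter the input values were 0.97 in A375 and 0.998 in Yumm1.7. Without mitochondrially encoded genes, Yumm1.7 had 0.54 in input and 0.67 in polysomes. As deposited, KLF2 passed 2-fold only in A375 polysomes (1.09).

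KLF6, a gene of injury responses, was lower in S in Yumm1.7. It had 17.4, 41.6 and 23.7 TPM in P input, monosomes and polysomes and 3.60, 4.75 and 3.30 in S. A375 had 21.6, 17.7 and 27.2 TPM in P and 12.2, 12.3 and 10.6 in S. The states overlapped in neither line. The log2 differences were -1.07, -2.68 and -0.99 in Yumm1.7 and -0.57, -0.53 and -1.07 in A375, so the A375 value passed 2-fold in polysomes alone, and there not with a pseudocount of 5 (-0.91). That pseudocount also brought the Yumm1.7 input value within 2-fold (-0.84). The Yumm1.7 polysome value passed 2-fold without the filter (-1.30), as deposited (-2.52) and without mitochondrially encoded genes (-2.13).

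KLF4, a factor of epithelial differentiation and pluripotency, lay lower in S in every fraction of both lines. A375 had 8.30, 4.15 and 11.1 TPM in P input, monosomes and polysomes and 4.08, 3.61 and 4.86 in S, which overlapped. Yumm1.7 had 2.59, 3.30 and 4.24 TPM in P and 0.736, 0.419 and 0.438 in S, without overlap. Relative to the median gene, only the Yumm1.7 monosome difference passed 2-fold (-1.39), and not with a pseudocount of 5 (-0.49). As deposited, all 3 Yumm1.7 differences did (-1.05, -1.60 and -1.86), as did A375 polysomes (-1.04).

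KLF10, the TGF-beta-inducible early gene, lay on opposite sides of the median gene in the 2 lines. A375 had 22.05, 15.7 and 30.8 TPM in P input, monosomes and polysomes and 31.7, 20.8 and 31.7 in S, and the states overlapped. Yumm1.7 had 9.58, 14.4 and 11.05 TPM in P and 2.37, 6.92 and 2.25 in S, and the states did not overlap. The log2 differences were 0.70, 0.35 and 0.25 in A375 and -0.71, -0.75 and -0.36 in Yumm1.7, all within 2-fold. As deposited, the Yumm1.7 input and polysome values were past 2-fold (-1.65 and -1.89), as they were on the scale without mitochondrially encoded genes (-1.49 and -1.54).

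**Figure D2:**
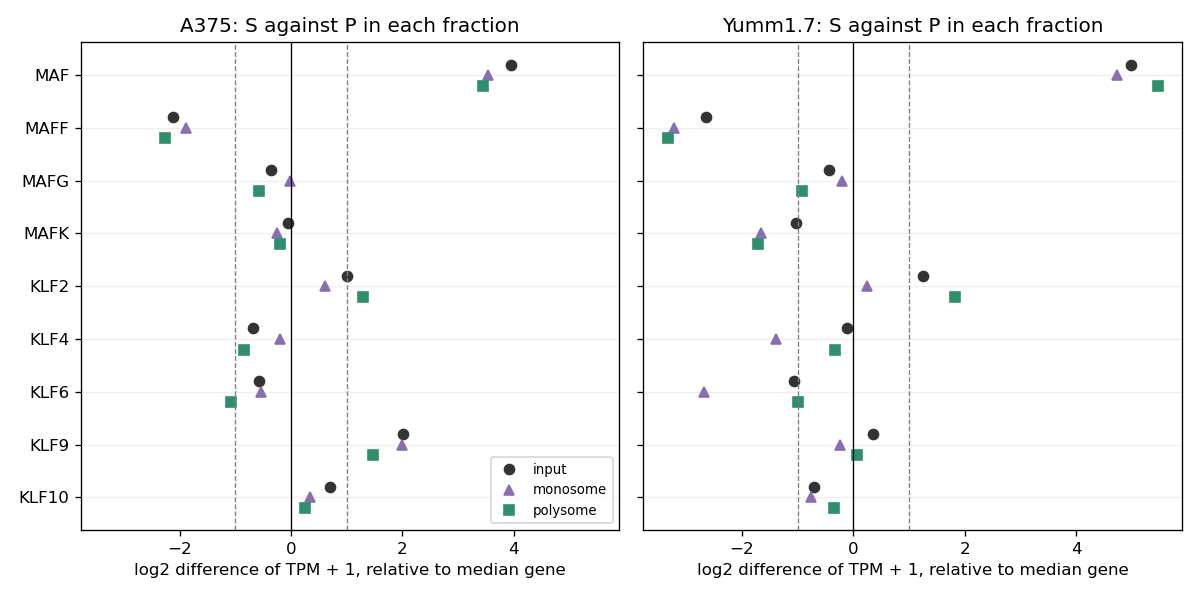
Log2 difference of TPM + 1 between S and P, relative to the median gene, for each of the 9 genes in A375 (left) and Yumm1.7 (right). Symbols are input (circles), monosomes (triangles) and polysomes (squares), and dashed lines mark 2-fold. MAF lies between 3.45 and 5.46 in all comparisons and MAFF between -3.33 and -1.89.

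Counted against all tested genes, the list moved in both directions. In A375 input, 3 of 9 members were at least 2-fold higher in S (MAF, KLF2 and KLF9), where 15.6% of all genes were, and 1 was lower (MAFF), where 16.2% were. In Yumm1.7 input, 2 were higher (MAF and KLF2; 23.1% of all genes) and 3 lower (MAFF, MAFK and KLF6; 22.3%). MAF was chosen on this contrast, and the counts of the remaining members are too small to be read as a departure from these shares. As deposited, A375 input had 2 higher and 1 lower, against 11.9% and 20.9% of all genes, and Yumm1.7 input 1 and 6, against 8.94% and 48.1%. The median member was at -0.05 in A375 input and -0.43 in Yumm1.7 input. Across input, monosomes and polysomes alike, MAF and KLF9 stayed 2-fold higher and MAFF 2-fold lower in A375, where 6.24% and 6.33% of genes did so. In Yumm1.7 they were MAF higher and MAFF and MAFK lower, where 14.1% and 11.7% of genes did so.

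In monosomes, 2 members were higher and 1 lower in A375 (11.7% and 13.2% of all genes), and 1 was higher and 4 lower in Yumm1.7 (25.4% and 24%). In polysomes the counts were 3 higher and 2 lower in A375 (16.5% and 15.6%) and 2 and 2 in Yumm1.7 (24.1% and 22.5%). As deposited, A375 polysomes had 3 higher and 3 lower (12.5% and 20.6%), Yumm1.7 monosomes 1 and 4 (21.2% and 29.2%) and Yumm1.7 polysomes 1 and 7 (5.28% and 65.1%). TPM of S lay wholly above P for 3 members in A375 (MAF, KLF2 and KLF9; 9.03% of genes) and wholly below for 2 (MAFF and KLF6; 12.7%). In Yumm1.7, 1 lay wholly above (MAF; 8.19%) and 6 wholly below (MAFF, MAFG, MAFK, KLF4, KLF6 and KLF10; 45.5%).

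The order of levels changed between states. In A375 P input, KLF9 (52.8 TPM) and MAFF (42.6) were highest, followed by MAFG, KLF10 and KLF6 (26.0 to 21.6), then MAFK and MAF (11.4 and 9.74), KLF4 (8.30) and KLF2 (0.507). In A375 S input, KLF9 and MAF stood first and MAFF was seventh. In Yumm1.7 P input, Mafg, Maff, Klf6 and Mafk led (20.7 to 16.1 TPM) and Maf was last. In Yumm1.7 S input, Maf was first at 20.6 TPM, ahead of Mafg at 7.39. Without replicates, neighbours in these orders cannot be said to differ. KLF9 made up 50.2% of the summed TPM of the 6 KLF members in A375 P input and 79.0% in S input, and 16.9% and 30.8% in Yumm1.7.

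The polysome-to-monosome comparison asked how far each mRNA sits toward the heavy end of the gradient. KLF9 mRNA lay toward the light end in both lines. Its polysome-to-monosome log2 ratio relative to the median gene was -1.06 in A375 P and -1.44 in A375 S. The Yumm1.7 ratios were -1.13 in P and -0.76 in S. As deposited, the ratios were -0.01 and -0.78 in A375, since the median gene itself had 1.05 and 0.67. The A375 P ratio was -0.68 with a pseudocount of 5, and the Yumm1.7 P ratio -0.79. KLF10 of Yumm1.7 lay at -1.27 in P (-0.91 with a pseudocount of 5) and -0.82 in S, whereas in A375 it was at -0.12 and -0.08. KLF6 of Yumm1.7 was at -1.70 in P and 0.04 in S. As deposited, the Yumm1.7 P ratios were all within 2-fold, at -0.21 for KLF9, -0.36 for KLF10 and -0.79 for KLF6, and the S ratio of KLF6 was -0.42.

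MAF mRNA sat somewhat below the median gene in A375, with ratios of -0.63 in P and -0.59 in S. In Yumm1.7 it was at -0.95 in P and -0.17 in S, but the P ratio rests on 0.130 and 0.102 TPM. The small MAF mRNAs lay above the median gene in P of both lines (A375 values were 0.51, 0.35 and 0.84 for MAFF, MAFG and MAFK, and Yumm1.7 values 0.52, 0.50 and 0.27). MAFG of S was at -0.08 and -0.16. MAFK reached 1.03 in A375 S (0.66 with a pseudocount of 5), where 20.8% of all genes were at least 2-fold above the median gene.

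Counts past 2-fold were 0 higher and 1 lower in A375 P (KLF9; 19.1% and 20.8% of all genes) and 1 and 1 in A375 S (MAFK and KLF9; 20.8% and 16.7%). In Yumm1.7 they were 0 and 3 in P (KLF6, KLF9 and KLF10; 14% and 13.4%) and 1 and 0 in S (KLF2; 13.2% and 10.9%). As deposited, 4 members were higher and 0 lower in A375 P (51.6% and 7.36%), and 1 and 0 in A375 S (38.7% and 4.86%). In Yumm1.7 they were 3 and 0 in P (46.2% and 2.54%) and 0 and 2 in S (6.32% and 25.6%).

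The S ratio was also set against the P ratio. In A375 no member changed by 2-fold (13.1% of all genes were higher and 7.88% lower, or 7.89% and 16.2% as deposited), and values ran from -0.59 for KLF4 to 0.73 for KLF2. In Yumm1.7, KLF2 (1.69), KLF4 (1.16) and KLF6 (1.79) were at least 2-fold higher, where 17.3% of all genes were higher and 12.6% lower. KLF4 was at 0.79 with a pseudocount of 5. As deposited, none of the 3 passed (0.27, -0.26 and 0.37), and MAFF, MAFG, MAFK and KLF9 were lower instead, where 3% of genes were higher and 66.5% lower. KLF2 and KLF4 lay at 0.419 to 4.24 TPM in these Yumm1.7 libraries. Mitochondrially encoded RNA moved with these libraries, at 1.90% of 1000000 TPM in Yumm1.7 P polysomes and 19.4% in S polysomes. With TPM rescaled without these genes and not centred, KLF2, KLF4 and KLF6 were at 0.58, 0.04 and 0.72, within 2-fold. The rescaling set the remaining listed genes to 1000000, so it also removed the unlisted share. Listed genes summed to 94.4% of 1000000 in Yumm1.7 P polysomes and 84.5% in S polysomes. On that scale MAFF, MAFG and MAFK were past 2-fold lower, at -1.08, -1.71 and -1.03.

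**Figure D3:**
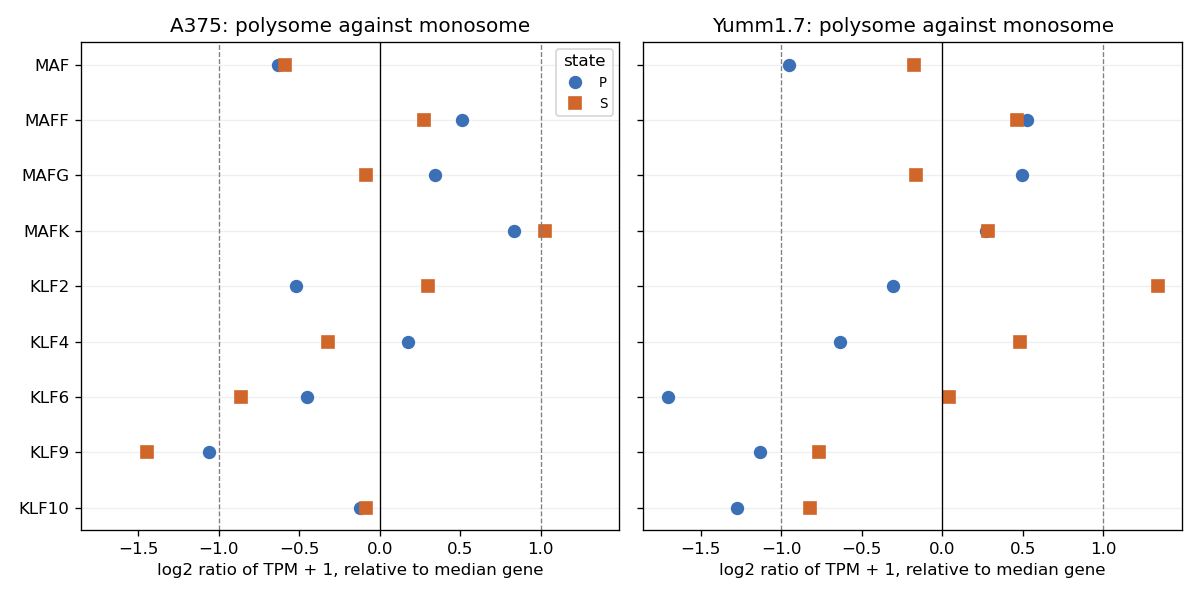
Log2 polysome-to-monosome ratio of TPM + 1, relative to the median gene, for the 9 genes in A375 (left) and Yumm1.7 (right), in P (circles) and S (squares). Dashed lines mark 2-fold. KLF9 is left of 0 in both lines and states (-1.44 to -0.76), and the Yumm1.7 KLF6 ratio lies at -1.70 in P and 0.04 in S.

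Among the other large MAF genes, MAFA and NRL had at most 0.410 TPM in A375, and Mafa at most 1.08 in Yumm1.7. None reached the level needed for a comparison. Of the other KLF genes, 4 of 8 tested were at least 2-fold higher in A375 S input and 0 lower (median 0.54), and 1 of 5 was higher and 1 lower in Yumm1.7 (median -0.70). As deposited the counts were 4 and 1 in A375 and 0 and 3 in Yumm1.7. KLF3, a repressor, had 8.15 and 17.7 TPM in A375 P and S input (1.23), and in Yumm1.7 6.35 and 1.37 (-0.70). KLF16 went from 18.7 to 10.9 (-0.52) and from 20.3 to 4.68 (-0.97). Of the related SP genes, 0 of 4 were higher and 1 lower in A375 (SP3, 32.6 and 12.8 TPM; median -0.20). In Yumm1.7, 0 of 3 were higher and 1 lower (SP2, 8.72 and 1.13 TPM; median -0.90), or 0 and 2 as deposited.

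**Figure D4:**
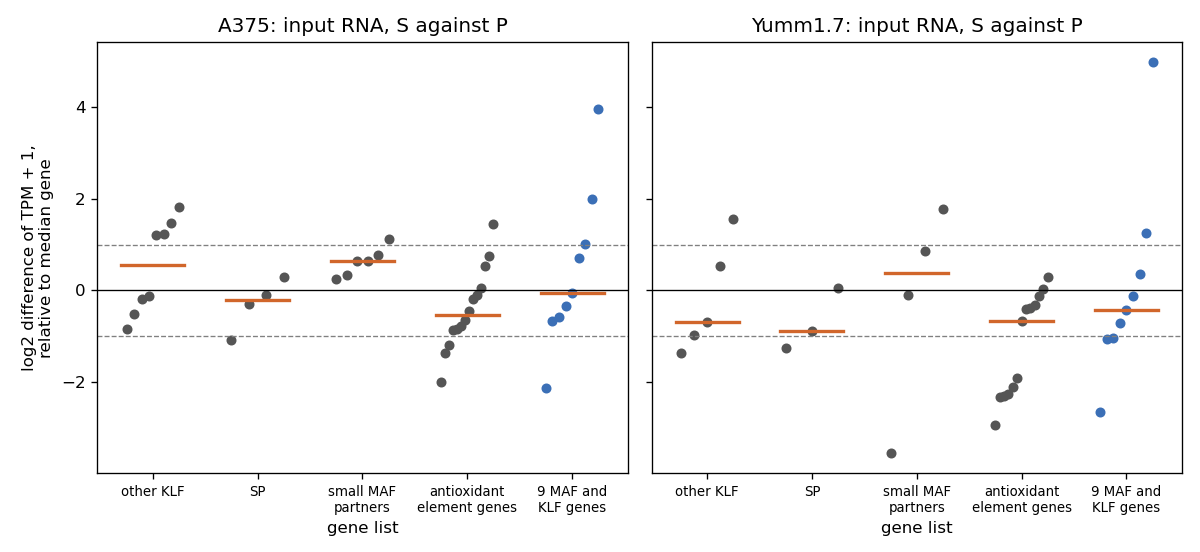
Log2 difference of TPM + 1 in input RNA, S against P, relative to the median gene, in A375 (left) and Yumm1.7 (right). Each point is a gene. Groups are the other KLF genes, the SP genes and the small MAF partners with KEAP1. The antioxidant response element genes and the 9 MAF and KLF genes follow. Orange bars are medians and dashed lines mark 2-fold. The 9 genes (blue) spread from -2.12 to 3.96 (A375) and from -2.65 to 4.98 on the right.

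Genes known to act upstream of the KLF members were compared in the same way. ERK5 signalling through MEF2 factors induces KLF2 and KLF4. Of this module, 1 of 8 genes was at least 2-fold higher in A375 S input and 0 lower. It was MEF2C, at 9.53, 4.53 and 17.2 TPM in P input, monosomes and polysomes and 86.4, 58.2 and 99.0 in S, without overlap (3.25 in input). In Yumm1.7, 0 of 6 were higher and 1 lower, or 0 and 2 as deposited. Of the glucocorticoid receptor and genes it induces, where KLF9 belongs, 2 of 7 were higher and 3 lower in A375, or 1 and 3 as deposited. TSC22D3 lay with KLF9 (2.69 and 15.2 TPM, 2.34), while FKBP5 (13.4 and 2.19, -1.97) and SGK1 (119 and 30.8, -1.72) lay opposite. In Yumm1.7, 1 of 7 was higher (TSC22D3, 15.3 and 24.0 TPM, 1.55) and 3 were lower. As deposited, 0 were higher and 5 lower, so TSC22D3 passed 2-fold there only relative to the median gene.

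Known targets of MAF in lens and myeloma held few expressed genes, and the list was drawn up with its highest members known. In A375 both tested genes were higher in S input: the small heat shock protein and lens crystallin CRYAB (3.47 and 126 TPM) and the crystallin CRYGS (3.35 and 260). In Yumm1.7, 3 of 5 were higher and 1 lower, one of the higher being Crygs, which was listed at 0 in all 3 P libraries and so was tested only through S. Cryab went from 76.2 to 2016 TPM and Crybb3 from 2.13 to 15.7, whereas Ccnd2 was at 43.8 and 39.2 TPM (0.78 relative to the median gene). The integrin gene Itgb7 was at 70.9 TPM in P input, while S input lists it at 0. Itgb7 had 3.68 TPM in S monosomes.

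The genes most like MAF over the 12 libraries were SOX4, PMEPA1, COL8A1, MMP11 and MXD4. Likeness was Pearson's r on log2(TPM + 1), centred on the median gene of each library and the mean of each line, over 8522 genes tested in both lines. The values were 0.995, 0.992, 0.987, 0.986 and 0.983. SOX4 had 6.46, 4.26 and 8.39 TPM in A375 P input, monosomes and polysomes and 77.7, 65.6 and 112 in S. For the other members the closest genes were LRP8 (0.989) for MAFF, PREB (0.853) and USP10 (0.837) for MAFG, and DDX19A (0.958) and OSER1 (0.948) for MAFK. They were FBXO36 (0.978) and NME3 (0.967) for KLF2, FGFBP3 (0.927) and ETNK1 (0.924) for KLF4, and GTF2A1 (0.984) and CTDSPL2 (0.972) for KLF6. KLF9 was closest to NR1D2 (0.968) and SKIL (0.964), and KLF10 to GOLPH3L (0.954) and TMEM65 (0.943). Within the list, MAF and MAFF ran opposite (-0.974), and the most alike were KLF4 and KLF6 (0.855) and MAF and KLF2 (0.853). Of these members, KLF2 stayed at or below 2.49 TPM in both lines. MAF was at 0.102 to 0.304 TPM in Yumm1.7 P. In Yumm1.7 S, KLF4 was at 0.419 to 0.736 TPM and MAFF at 0.724 to 0.747. The 12 points are fractions of 4 line and state pairs, so they share their source cells and are not independent. MAF was chosen for its S against P gain, so its coefficients largely restate that contrast. COL8A1 in both lines and PMEPA1 in Yumm1.7 were near 0 in P. MMP11 was at 0.302 to 0.636 TPM in A375 P and FBXO36 at 0.154 to 0.552. In Yumm1.7 S, LRP8 was at 0.136 to 0.332 TPM and CTDSPL2 at 0.260 to 0.737. These genes passed the filter in that line only through the other state.

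As human genes, the members have few exons, and the small MAF genes are short in coding sequence. In the GENCODE 29 annotation (GRCh38), MAF lies on chromosome 16 from 79585843 to 79600714, MAFF on chromosome 22 from 38200767 to 38216511 and KLF9 on chromosome 9 from 70384597 to 70414624. Their principal transcripts have 2 exons in MAF and KLF9 and 3 in MAFF. Coding lengths ran from 468 bases in MAFK to 1440 in KLF10, against a median of 1395 over 10802 expressed genes, whose median exon number was 9. ATTTA is the pentamer of AU-rich elements. Per kilobase of the 3′ untranslated region it occurred 3.20 times in MAF, 3.55 in KLF2, 2.51 in KLF9 and 1.38 in MAFG. The median was 1.66. By number, MAF had 2 in a region of 625 bases and KLF2 had 3 in 846, against a median of 2. MAFF overlaps the span of PLA2G6 on the opposite strand with no shared exon bases. PLA2G6 had 25.9 TPM in A375 P input and 6.91 in S input. MAFK shares 809 exon bases with TMEM184A on the opposite strand. MAFG shares 105 with SIRT7 on its own strand and 224 with the antisense gene AC145207.8. The strand setting is not given in the sources used here, so reads of these genes may be partly mixed.

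MAF, KLF2 and KLF4 are also expressed by macrophages and endothelial cells, so markers of those cells were summed. In A375, 4 of 15 macrophage markers were analysed and summed to 2.44 to 28.8 TPM in P and 150 to 655 in S, of which CD68, a lysosomal protein gene, made up 148 to 649. The part of such cells in the MAF difference was not tested. ADGRE1 was at 0.558 to 3.50 and FCER1G at 0 to 2.15 in the A375 libraries. In Yumm1.7, 3 of 15 summed to 41.1 to 91.1 TPM in P and 0.849 to 7.46 in S. The single endothelial marker analysed in each line (1 of 10) stayed at or below 1.996 TPM. Fibroblast markers of Yumm1.7 (8 of 10) summed to 198 to 472 TPM in P and 398 to 828 in S. The sum joins members that moved apart: in input, Pdpn had 214 TPM in P and 67.3 in S, whereas Dpt had 0.926 and 35.2, Col3a1 25.4 and 204, Col1a2 12.4 and 74.1 and Dcn 0.0648 and 3.64. Pdgfra stayed at or below 0.679 TPM. The part of such cells in the Maf difference was not tested.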

How the data were processed

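Poly(A) RNA of 12 polysome profiling libraries was sequenced by the submitters. The authors deposited 1 table of TPM per cell line, per the file headers and the tables' names; the builds are GRCh38 (hg38) and GRCm38 (mm10), per the submitters' processing notes, and the sources used here do not name the aligner or quantifier. Listed genes sum to 66.6% to 94.4% of 1000000 TPM. Groups came from sample titles. Depth is unknown, so no interval or limit for a value of 0 could be given.

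Computed from these were log2(TPM + 1) differences among genes averaging 1 TPM or more in a line, centred on the median gene, with 2-fold as the line for counting (Python 3.11.15, pandas 2.3.3). The calculation was tested on simulated data, with changes set in well-expressed genes and read in input alone. That test does not cover genes with low TPM or polysome-to-monosome ratios. No test was possible with 1 library per group. The members and lists were chosen with earlier results of these data known. Named genes were all 9 members, up to 4 per list with a mean of at least 5 TPM and the largest input difference, and the genes most like each member (5 for MAF, 2 for others, of which 1 is not reported here). Other genes of a list were named after their values were seen. Alternatives were pseudocounts of 0.1 and 5, no filter, a mean of at least 5 TPM and TPM as deposited. The last was TPM rescaled without mitochondrially encoded genes, with the other listed genes set to the library total.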

Additional observations from a re-analysis of the deposited data

Results flagged for a closer look

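KLF10 lay above the median gene in all 3 fractions of A375 S against P (0.70 in input, 0.35 in monosomes and 0.25 in polysomes) and below it in all 3 fractions of Yumm1.7 (-0.71, -0.75 and -0.36). Opposite directions in the 2 lines drew attention to it. Each of these values is within 2-fold and rests on 1 library per group. As deposited, the Yumm1.7 input and polysome values were past 2-fold (-1.65 and -1.89), as they were without mitochondrially encoded genes (-1.49 and -1.54). The difference between the lines was not tested.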

How the results depend on the processing

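No paired analysis was possible because each group has 1 library and the labels give no replicate numbers, and leaving out a replicate was not possible either. Depth limits are unknown for TPM. MAF and MAFF kept direction and stayed past 2-fold between S and P in all 3 fractions of both lines under all 6 alternatives. Filters changed which genes set the median, and a mean of at least 5 TPM left 7 members in Yumm1.7.

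With a pseudocount of 5, members past 2-fold were 3 in A375 polysomes (5 in the reported setting), 0 for A375 P polysome against monosome (1), 1 for A375 S (2), 1 for Yumm1.7 P (3) and 0 for Yumm1.7 S (1), and Yumm1.7 input had 1 higher (2) and 1 lower (3). Yumm1.7 input also had 1 higher with no filter, with a mean of at least 5 TPM, as deposited and without mitochondrial genes. It had 6 lower as deposited (48.1% of all genes) and 5 without mitochondrial genes. Yumm1.7 polysomes had 8 on both of these scales (4). As deposited, 5.28% of all genes were higher there and 65.1% lower. For polysome against monosome, the deposited scale gave 4 in A375 P, 1 in A375 S and 2 in Yumm1.7 S, and the scale without mitochondrial genes gave 3 in Yumm1.7 S. A mean of at least 5 TPM gave 0 in Yumm1.7 S and 1 for the Yumm1.7 ratio of S against P (3). The Yumm1.7 KLF4 ratio reversed to -0.26 as deposited (1.16). Shares of all genes were computed only for the reported and the deposited scales. Under the other alternatives, a changed member count cannot be told from a change in all genes.

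Over all genes, the deposited scale changed 2422 higher and 2336 lower to 938 and 5043 in Yumm1.7 input, 2528 and 2358 to 554 and 6827 in Yumm1.7 polysomes, 1812 and 1321 to 315 and 6978 for the Yumm1.7 ratio, and 1651 and 996 to 997 and 2047 for the A375 ratio. For polysome against monosome it changed 2408 and 2634 to 6526 and 930 in A375 P, 2624 and 2114 to 4892 and 614 in A375 S, 1466 and 1401 to 4848 and 266 in Yumm1.7 P, and 1381 and 1142 to 663 and 2681 in Yumm1.7 S.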

Other observations

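Immediate early and short-lived mRNAs, a class to which MAFF, KLF4, KLF6 and KLF10 belong, did not move as 1 group in input RNA. In A375, 7 of 19 tested genes were at least 2-fold higher in S and 7 lower (median -0.53), where 15.6% and 16.2% of all genes were. The AP-1 gene JUN went from 4.00 to 121 TPM, ATF3 from 7.76 to 128 and FOSL2 from 2.32 to 18.1, whereas MYC went from 37.5 to 1.80. In Yumm1.7, 1 of 15 was higher and 5 were lower (median -0.70), or 0 and 10 as deposited (median -1.63). The shares of all genes in Yumm1.7 input were 23.1% higher and 22.3% lower, and 8.94% and 48.1% as deposited. There Fosl1 had 207 TPM in P input and is listed at 0 in S input, with 2.87 in S monosomes. Myc went from 96.9 to 0.508 TPM, the RNA-decay factor gene Zfp36l2 from 52.6 to 8.50 and Ier5 from 41.0 to 7.17.

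TGF-beta early genes, the class of KLF10, held 5 higher and 2 lower of 11 tested in A375 input (median 0.63) and 3 higher and 2 lower of 10 in Yumm1.7 (median 0.56), or 2 and 4 as deposited (median -0.38). PMEPA1, also among the genes most like MAF, had 35.4 and 279 TPM in A375 P and S input, and 0.152 and 16.7 in the Yumm1.7 pair. The differentiation inhibitor ID3 went from 111 to 849 and from 30.7 to 254 TPM. ID1 went from 51.4 to 657 in A375 (3.85) but from 13.7 to 1.06 in Yumm1.7 (-1.90), where TGIF1 also lay lower (57.5 and 7.74).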
